A study of Oncorhynchus tshawytscha with 15 samples.

Results

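The 100 most abundant contigs of at least 300 bp in the gill of juvenile Chinook salmon at 12° were followed through the 5 exposure temperatures. A contig is an assembled stretch of transcript. The table held 183740 contigs, of which 146211 reached 300 bp, so the 100 members were 0.0544% of the table. They were selected on measured values: the mean RPKM of the 3 libraries of the 12° control group, where RPKM is the number of reads scaled by contig length in kilobases and by the library total. Levels at 12° are therefore given as description, and no result is drawn from a comparison with 12°. The comparisons that are read as tests were against 15°, the mildest exposure, whose libraries took no part in the selection.

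Fall-run fish from the Merced River Hatchery, 5 months after hatching, were held for 3 hr at 15°, 18°, 21° or 25° and returned to 12° for 1 hr before gill arches were taken. The 12° control group was handled in the same way without warming. At 25° a part of the fish stopped responding or died in the warm bath and was sampled at that point. The 25° group therefore mixes fish that completed the exposure and recovery with fish that did not. How these fish were spread over the 3 pools is not given in the sources used here. A response of living fish to 25° and changes in dying fish cannot be told apart in the 25° pools. Each temperature had 3 libraries, each from a pool of RNA from 11 fish, which gave 15 libraries and 165 fish. Library totals were 58654252 to 90869450 counted reads, and the members received 8772 to 1213681 reads each per library, with a median of 45139. Counting error was 1.07% of the value at the fewest reads and 0.471% at the median, smaller than the spread between pools. The replicates were separate pools of fish, so the errors given below are between pools and not between single fish.

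The gill exchanges gases and ions with the water and carries a thin epithelium, blood and immune cells, all of which add RNA to a sample of gill arch. In most tissues a small number of transcripts takes a large part of all mRNA, and these are usually transcripts of the translation and energy machinery or of the tissue's main specialised cells. An mRNA share is relative, so a large rise of a few transcripts lowers the share of all others without any loss of their molecules. In a whole tissue, fewer cells of a type and less RNA per cell cannot be told apart. The table identified contigs by number without gene names, so no member is given a name or a role here, and the labelled tissue was not checked against markers.

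By their selection, the members lay at levels far above the median of all contigs of at least 300 bp. Their mean RPKM at 12° was 5922 for the most abundant and 678 for the last, an 8.73-fold range, with a median of 906 against 0.920 for all contigs of at least 300 bp. The boundary was not a gap. The last members, contig_65255, contig_73051 and contig_71885, had 685, 681 and 678 RPKM at 12°, and the first contigs left out, contig_71318, contig_47505 and contig_29070, had 678, 675 and 667. Selection from each pair of the 12° libraries shared 94 to 97 contigs with the 100 members.

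The members were also described by features other than their level. All 100 members came from the set of contigs whose names begin with denovo. This set held 50910 contigs of any length and took 67.6% of all reads at 12°. Its 47611 contigs of at least 300 bp were 32.6% of all contigs of at least that length. Of the first 1000 ranks by the same measure, 919 were in that set. Length entered the selection, through the minimum of 300 bp and through RPKM, and is given as description. Members were 301 to 4732 bp long with a median of 594 bp, and 40% were under 500 bp, compared with 28.1% of all contigs of at least 300 bp. At least 99% of the reads of 96 members aligned uniquely. The other 4 were contig_29606, contig_62916, contig_75630 and contig_73051, the last with 83.8% unique reads, so few members could have shared their reads with a near-identical contig. A further 107 contigs under 300 bp, with a median length of 165 bp, had an RPKM above that of the last member and took 2.69% of the reads at 12°. The numbers of contig_68045 and contig_7100 also occur in the other set of contigs, and the values here are those of the denovo set.

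Together the members took about the same part of all reads at every temperature. Their share was 10.5%, 9.25% and 9.91% in the pools at 12° and 9.56%, 10.4% and 9.54% in those at 15°. It was 10.2%, 9.61% and 10.5% at 18° and 10.1%, 9.77% and 9.25% at 21°, while the pools at 25° had 9.43%, 10.2% and 9.998%. The mean was 9.88% ± 0.41 at 25° and 9.83% ± 0.49 at 15° (SD, n = 3 each). The pools of all temperatures overlapped, and the difference of 0.0515 percentage points between 25° and 15° was smaller than the SD within either temperature. Its sign changed without 25° replicate 2 or 3 and without 15° replicate 1 or 3, with values of -0.12 to 0.33 over the libraries left out in turn.

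The near-constant sum at 25° was made of 2 opposite movements of similar size. A single member, contig_70413, took 1.67% ± 0.24 of all reads at 25° and 0.133% ± 0.0027 at 15° (SD, n = 3 each). It held 16.9% of the members' reads at 25° and 1.35% at 15°. The other 99 members took 7.71%, 8.34% and 8.58% of the reads in the pools at 25°, all below the 9.43%, 10.3% and 9.40% in the pools at 15°. The mean share of these 99 was 1.49 percentage points lower at 25° than at 15°, and that of contig_70413 was 1.54 points higher. This division was chosen after the values were seen and was given no test. With library totals, the median of all 155951 contigs tested was also lower at 25° than at 15°, at a log2 fold change of -0.45. The lower share of the 99 is therefore not read as particular to them. At 12°, 15°, 18° and 21° the 99 members had mean shares of 9.76%, 9.70%, 9.97% and 9.48%. The fall of the 99 was a net value, because they included the other 4 members upregulated at 25° against 15°. These 4, picked by their rise, took 0.710% ± 0.076 of all reads at 25° and 0.307% ± 0.082 at 15°. The remaining members therefore fell by more than the 99 did together.

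**Figure D1:**
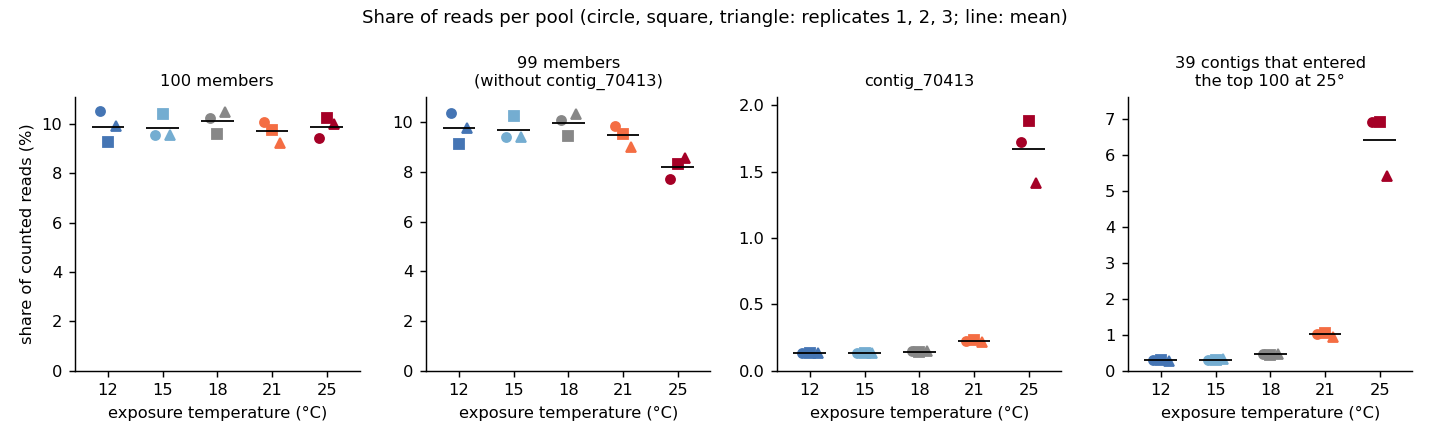
Share of all counted reads (%, vertical axes from 0, each panel on its own scale) against exposure temperature for the 100 members, the 99 members without contig_70413, contig_70413, and the 39 contigs that entered the top 100 at 25°. Points are single pools and lines are means of 3. The 100 members lie between 9.25% and 10.5% throughout, contig_70413 reaches 1.41% to 1.88% at 25°, and the entering contigs average 6.44% at 25°.

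The members at ranks 1 to 4 kept close to their 15° levels at 18° and 21°, with ratios of mean RPKM of 0.958 to 1.02. Not all high ranks did so. Contig_70382 and contig_18015, at ranks 14 and 16, had ratios of 1.69 and 1.44 at 18° over 15°, though neither passed the threshold there. Contig_28702, the first in rank at 1820 bp, had 6104, 5821 and 5841 RPKM at 12°, 5546, 6714 and 5963 at 15° and 6069, 5827 and 6006 at 18°. Its pools at 21° had 5757, 6415 and 5785 RPKM, and those at 25° had 5118, 6169 and 5593. Its pools overlapped at every temperature, and it took 1.02% of all reads at 25° and 1.11% at 15°. Contig_68587, the second in rank, averaged 4033 ± 280 RPKM at 25° and 4267 ± 340 at 15°, and contig_20874, the third, averaged 3942 ± 387 and 4253 ± 295 (SD, n = 3). Neither pair of temperatures was separated beyond the spread of the pools. Contig_61658 averaged 3174 ± 344 RPKM at 25° and 3734 ± 363 at 15°, and contig_68045 averaged 2548 ± 155 and 2670 ± 65.0. For contig_61658 the pools at 25° (2808, 3488 and 3227) overlapped those at 15° (3449, 4143 and 3611).

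Another 3 of the first 10 members had less RPKM in every pool at 25° than in any pool at 15°. The same held for 39.7% of all contigs tested, so it is not read as a trait of these members. Contig_46063 had 2100, 2639 and 2527 RPKM at 25°, against 3661, 3730 and 2940 at 15°. Contig_70313 had 1398, 1794 and 1693 at 25°, against 2523, 2746 and 2033 at 15°. Contig_70296 had 1310, 1659 and 1594 at 25°, against 2146, 2223 and 2026 at 15°. The ratios of mean RPKM were 0.703, 0.669 and 0.714. After TMM scaling, which sets libraries to a common level over most contigs, the log2 fold changes were -0.13, -0.20 and -0.11, and none passed the edgeR threshold.

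The remaining members of the first 10 varied between pools of the same temperature. Contig_34508 had 3785, 2424 and 3776 RPKM at 25° and 2343, 4097 and 3606 at 15°. Contig_19841 had 2687, 1580 and 3034 RPKM at 25° and 2074, 3089 and 2637 at 15°. Both sets of pools overlapped widely. By number of reads, which also counts contig length, the first 5 members at 12° were contig_28702 with 1.08% of all reads, contig_61658 with 0.637%, contig_29829 with 0.359%, contig_6846 with 0.335% and contig_68587 with 0.265%.

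For 46 of the 100 members the direction at 25° depended on the scale. The TMM factors were 0.786 to 0.839 in the 25° libraries and 1.01 to 1.08 in all others. On the RPKM scale 90 members had a lower mean at 25° than at 15° and 10 a higher one, with a median ratio of 0.795. After TMM scaling 44 members lay below 0 and 56 above, so 44 were lower on both scales and 10 higher on both, with a median log2 fold change of 0.05 for the members and -0.07 for all 155951 contigs tested. With library totals in place of TMM these medians were -0.33 and -0.45, so the choice of scale moved the median of all contigs by -0.38 on the log2 scale. Across the 5 temperatures the mean RPKM of 86 members was lowest at 25°, and that of 55 members was highest at 18°. These counts were not made over all contigs, whose median with library totals was also lower at 25° than at 15°. They are therefore not read as a trait of the members.

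Counts of members whose pools did not overlap followed the same division. On the RPKM scale 58 members had all 3 pools at 25° below all 3 at 15°, against 39.7% of all contigs tested, and 4 had them all above, against 13.8%. These 4 were contig_70413, contig_36184, contig_17419 and contig_68109. On TMM-scaled CPM (reads relative to the scaled library total) 17 members lay wholly below, against 24.8% of contigs, and 20 wholly above, against 22.7%. The share of members that lay below was thus higher than that of all contigs on the RPKM scale and lower after TMM scaling. The spread between pools, defined below, had a median of 0.131 for the members. It was 0.347 for all contigs of at least 300 bp with reads in every library. A smaller spread makes complete separation easier, and non-overlap was not counted for contigs of similar abundance. The difference is therefore not read as a trait of the members.

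Counts of members past the test threshold are given beside the share of all contigs tested. The threshold in edgeR's quasi-likelihood test on total reads was an adjusted p (Benjamini-Hochberg) below 0.01 together with a change above 2-fold. At 18° against 15°, 0 members were upregulated and 0 downregulated, with 0.034% and 0.00128% of all contigs called in these directions. At an unadjusted p below 0.05 with the same fold change, 0 members passed at 18° in either direction, and the DESeq2 test also called 0. At 21° against 15°, 1 member was upregulated and 0 were downregulated, with 0.467% and 0.0263% of all contigs. At 25° against 15°, 5 members were upregulated, a share of 5% against 8.57% of all contigs. At 25° 0 members were downregulated, against 5.91% of all contigs, and at the same fold limit 0 passed downward with an unadjusted p below 0.05 or with DESeq2.

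Without the fold threshold, 9 members rose and 5 fell at 25° against 15°, with 10.8% and 8.38% of all contigs tested. With library totals in place of TMM and the fold threshold kept, 3 members were upregulated and 4 downregulated, with 5.6% and 12.7% of all contigs. Of the 100 members, 82 had log2 fold changes within 0.5 of 0 and 95 within 1, and the whole range was -0.94 to 4.04. At 18° against 15°, 98 members lay within 0.5 and the median was 0.09, and at 21° against 15°, 97 lay within 0.5 and the median was 0.01. The interquartile range of the log2 fold changes at 25° was 0.45 for the members, 0.54 for the ranks after them down to 1000, 0.72 for the next ranks down to 10000 and 1.32 for lower ranks. Lower ranks have fewer reads, and the part of counting error in these ranges was not tested.

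The values of the 12° control group chose the members, so their counts past the same limits against 12° are listed for completeness and nothing is read from them. In either direction, 0 members passed at 15° (0% of all contigs), 0 at 18° (0.0269%), 1 at 21° (0.586%) and 4 at 25° (14.7%).

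**Figure D2:**
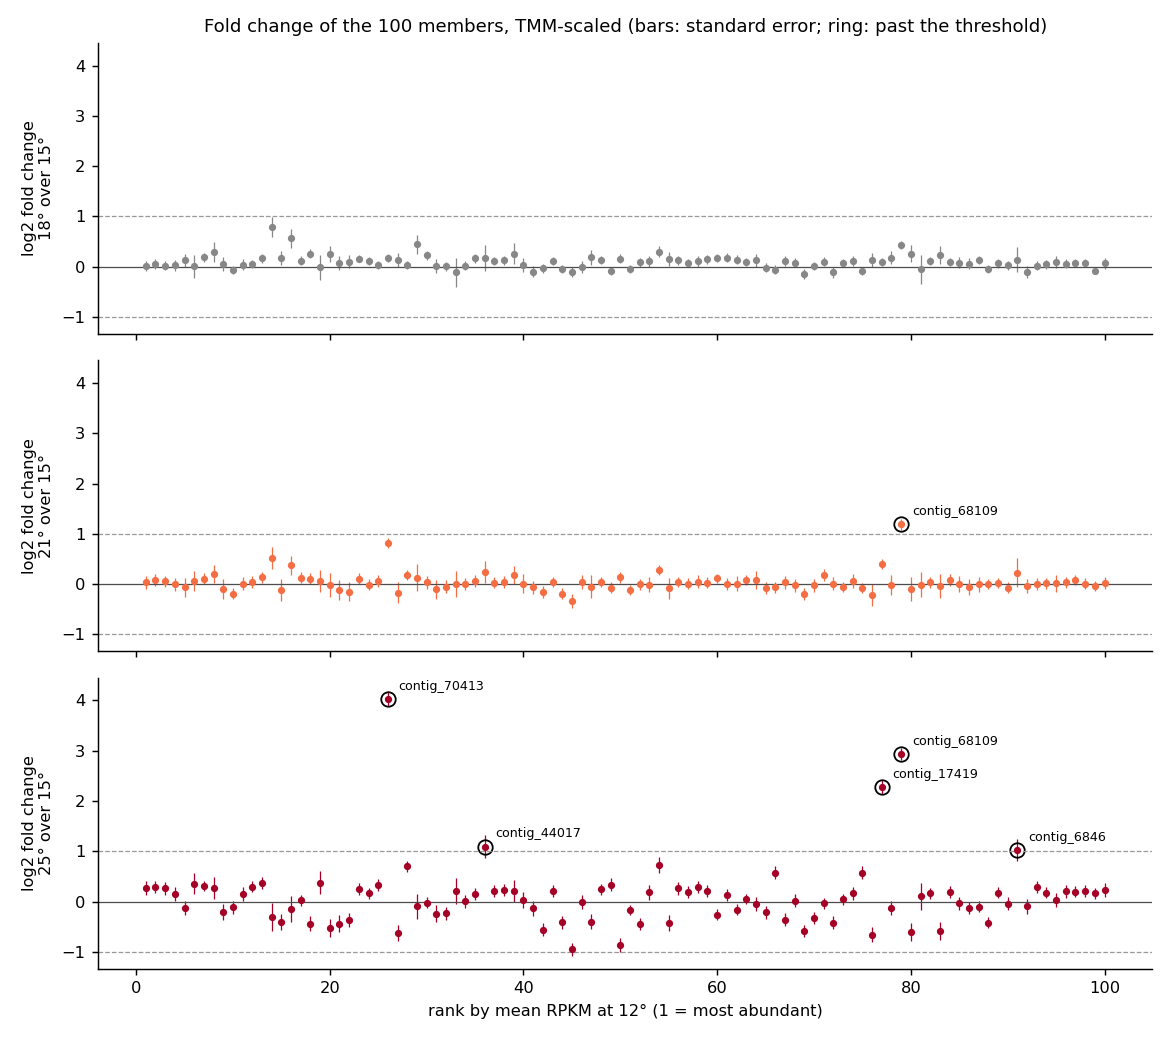
Log2 fold change of each member after TMM scaling (vertical axis, bars are standard errors) against its rank by mean RPKM at 12° (horizontal axis), for 18°, 21° and 25° over 15°. Rings mark members past the threshold, 0 at 18°, 1 at 21° and 5 at 25°, and dashed lines mark a 2-fold change. Most members lie near 0 in all panels.

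Contig_70413 had the largest change of the members. This contig of 955 bp, at rank 26, had 1418, 1436 and 1366 RPKM at 12°, 1373, 1374 and 1423 at 15° and 1531, 1496 and 1535 at 18°. At 21° it had 2344, 2412 and 2295 RPKM, and at 25° it had 18042, 19668 and 14808. The pools at 12° and 15° were alike, those at 21° lay above all pools of the lower temperatures, and those at 25° lay above all others. The ratio of mean RPKM at 25° to 15° was 12.6, and the log2 fold change after TMM scaling was 4.04 ± 0.15 (SE), with an adjusted p of 3.51e-08 in edgeR's quasi-likelihood test. At 21° against 15° the log2 fold change was 0.82 ± 0.10, with an adjusted p of 0.00315 in the edgeR test, below a 2-fold change. It moved to rank 3 among all contigs of at least 300 bp at 25°.

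Contig_68109, of 499 bp and at rank 79, was higher at each step above 15°. It had 828, 771 and 736 RPKM at 12°, 836, 785 and 771 at 15° and 1088, 1004 and 1046 at 18°. Its pools at 21° had 1821, 1803 and 1597 RPKM, and those at 25° had 4730, 4829 and 4572. The pools of 15°, 18°, 21° and 25° did not overlap. It was the only member upregulated at 21° against 15°, with a log2 fold change of 1.19 ± 0.11 and an adjusted p of 4.21e-04 in edgeR's quasi-likelihood test. At 25° against 15° the log2 fold change was 2.94 ± 0.11, with an adjusted p of 3.87e-08 in the same edgeR test. At 18° against 15° it was 0.43 ± 0.08, and the adjusted p of 0.157 in the edgeR test missed the threshold.

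Contig_17419, of 320 bp and at rank 77, stayed within narrow limits up to 18°. It had 795, 816 and 782 RPKM at 12°, 764, 789 and 803 at 15° and 808, 817 and 822 at 18°. At 21° it had 993, 1017 and 956 RPKM, and at 25° it had 2839, 3304 and 2650. The pools at 21° and at 25° each lay above all pools of the lower temperatures. On the RPKM scale 9.06% of all contigs tested had their 21° pools wholly above those at 15°. At 21° against 15° the log2 fold change of contig_17419 was 0.39 ± 0.10, and the adjusted p of 0.101 in the edgeR test missed the threshold. The log2 fold change at 25° against 15° was 2.28 ± 0.13, with an adjusted p of 5.54e-07 in edgeR's quasi-likelihood test. These 3 calls held in all fits with other scalings, reads or libraries.

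Contig_44017 and contig_6846 were upregulated at 25° against 15° by a small margin and varied more between pools than any other members. Contig_44017, of 329 bp, had 753, 1216 and 1247 RPKM at 25°, against 508, 590 and 864 at 15°, and contig_6846, the longest member at 4732 bp, had 573, 755 and 861 at 25°, against 383, 361 and 653 at 15°. The pools at 25° and 15° overlapped for both contigs. Their log2 fold changes were 1.096 ± 0.23 and 1.03 ± 0.22, with adjusted p of 0.00414 and 0.00518 in edgeR's quasi-likelihood test. Both calls were lost with library totals, where the log2 fold changes were 0.71 and 0.65, in the fit of all 15 libraries, and without 25° replicate 2, 25° replicate 3, 15° replicate 1 or 15° replicate 2, each of which left 3 upregulated members. At 12° the pools of contig_44017 had 1777, 382 and 1349 RPKM and those of contig_6846 had 894, 276 and 956, so the range at 12° took in all values of the heated groups.

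The members with the largest falls at 25° against 15° stayed under a 2-fold change after TMM scaling, and they are named after their values were seen. Contig_24715, of 1480 bp, had 1020, 998 and 843 RPKM at 12°, 985, 922 and 831 at 15° and 901, 802 and 768 at 18°. Its pools at 21° had 761, 731 and 591 RPKM, and those at 25° had 346, 402 and 345. Its mean was lower at each higher temperature, and the pools at 21° lay below all pools at 18°. The log2 fold change at 25° against 15° was -0.94 ± 0.13, with an adjusted p of 2.71e-04 in edgeR's quasi-likelihood test, and it was past a 2-fold change without 25° replicate 2 (-1.05) and with library totals (-1.32).

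Contig_18986, of 920 bp, had another course. It had 889, 915 and 916 RPKM at 12°, 924, 1013 and 1006 at 15° and 1065, 1025 and 1111 at 18°. At 21° it had 1022, 1075 and 1004 RPKM, and at 25° it had 343, 401 and 504. Its pools at 18° lay above all those at 15°, as they did for 6.15% of all contigs tested on the RPKM scale. Its pools at 21° overlapped those at 15°. At 25° they lay below all those at 15°, as they did for 39.7% of all contigs tested. The log2 fold change at 25° against 15° was -0.86 ± 0.14, with an adjusted p of 0.00107 in edgeR's quasi-likelihood test, and it was past a 2-fold change without 25° replicate 3 (-1.002) and with library totals (-1.24). The other 3 members that fell without a fold threshold were contig_57180, contig_30671 and contig_70819, with log2 fold changes of -0.66, -0.59 and -0.55.

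**Figure D3:**
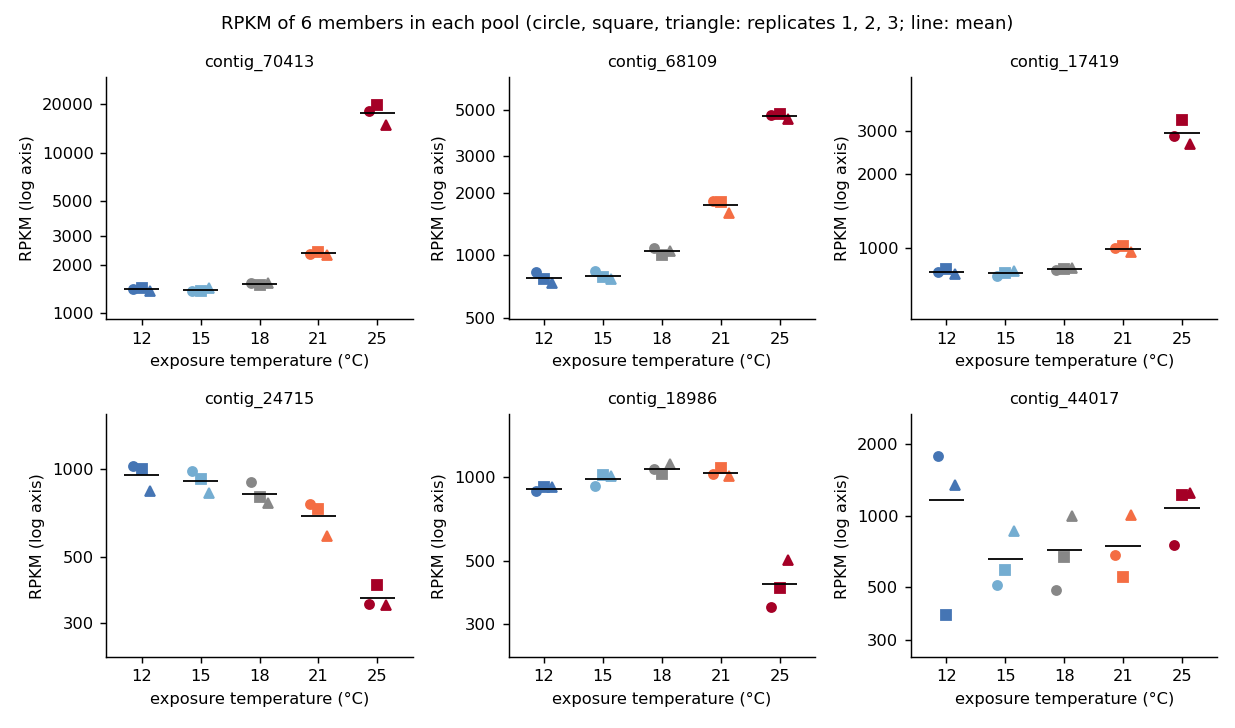
RPKM in each pool (log axes, each panel on its own scale) against exposure temperature for 6 members. Points are pools and lines are means of 3. Contig_70413, contig_68109 and contig_17419 are highest at 25°, contig_24715 and contig_18986 are lowest at 25°, and the pools of contig_44017 spread over 382 to 1777 RPKM at 12°.

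The spread between pools differed greatly among members. It was measured as the root mean square over the 5 temperatures of the SD of log2 RPKM among 3 pools, and had a median of 0.131 over the members with a range of 0.0417 to 0.660. The 900 contigs that followed them in rank had a median of 0.125, and all contigs of at least 300 bp with reads in every library had 0.347. The steadiest members were contig_14034 at 0.0417, contig_2529 at 0.0540 and contig_36184 at 0.0583. Contig_14034 had 442, 448 and 434 RPKM at 25°, against 732, 765 and 803 at 15°, so a small spread within temperatures did not mean the same level at all of them. The most variable members were contig_44017 at 0.660, contig_6846 at 0.613 and contig_70382 at 0.534.

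Some members kept a nearly fixed ratio to at least 1 other member across all 15 libraries. The steadiest pair was contig_28702 with contig_20874, whose RPKM ratio was 1.42 on average and 1.39 to 1.49 over the 15 libraries. The SD of its log2 ratio was 0.0257, compared with a median of 0.276 over the 4950 pairs of members. Contig_60978 with contig_70862 and contig_66872 with contig_29889 came next, with SDs of 0.0289 and 0.0292. At an SD below 0.05, a limit chosen after the values were seen, 56 pairs were linked. Most members had no partner at this limit, and pairs of contigs outside the members were not compared. Groups were built by chaining linked pairs, so members of a group were not always below the limit as a pair. One linked group held 17 members, among them contig_28702, contig_68587 and contig_20874, the first 3 ranks, and had RPKM ratios of 25° to 15° between 0.864 and 0.945. These 17 members were 315 to 1820 bp long with a median of 457 bp, and most pairs among them were above the limit.

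The other linked groups were smaller, and not all of them are listed here. Most differed from the first in their RPKM ratios of 25° to 15°. Contig_46063, contig_70313 and contig_60591 had RPKM ratios of 25° to 15° of 0.653 to 0.703. Contig_45099, contig_45098 and contig_17176 had ratios of 0.943 to 0.968, which overlapped those of the first group. Contig_14712 and contig_57180 had ratios of 0.489 to 0.4999, and contig_4608 and contig_8696 had 1.14 to 1.15. Whether linked contigs are stretches of 1 transcript was not tested, so they are not counted as separate transcripts.

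Some linked members varied strongly between pools of the same temperature. Contig_34508 and contig_8664 kept a ratio of 1.65 to 1.82 in all 15 libraries while contig_8664 had 1193, 1168 and 2293 RPKM at 12°. Contig_70382 and contig_18015 were not linked, with an SD of the log2 ratio of 0.170. They had a wider ratio of 0.786 to 1.16, and both were lowest in 25° replicate 2, at 371 and 472 RPKM. At 12° both were highest in replicate 3, at 2550 and 2349 RPKM. Contig_44017 and contig_6846, also not linked at an SD of 0.168, had a ratio of 1.28 to 1.99, and both were lowest in 12° replicate 2. Contig_62916 did not keep a steady ratio to contig_44017, with an SD of the log2 ratio of 0.387, above the median of 0.276 over all pairs of members. Within 25°, replicate 2 was the lowest pool for contig_34508, contig_8664, contig_70382 and contig_18015, whereas replicate 1 was the lowest for contig_44017 and contig_6846.

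**Figure D4:**
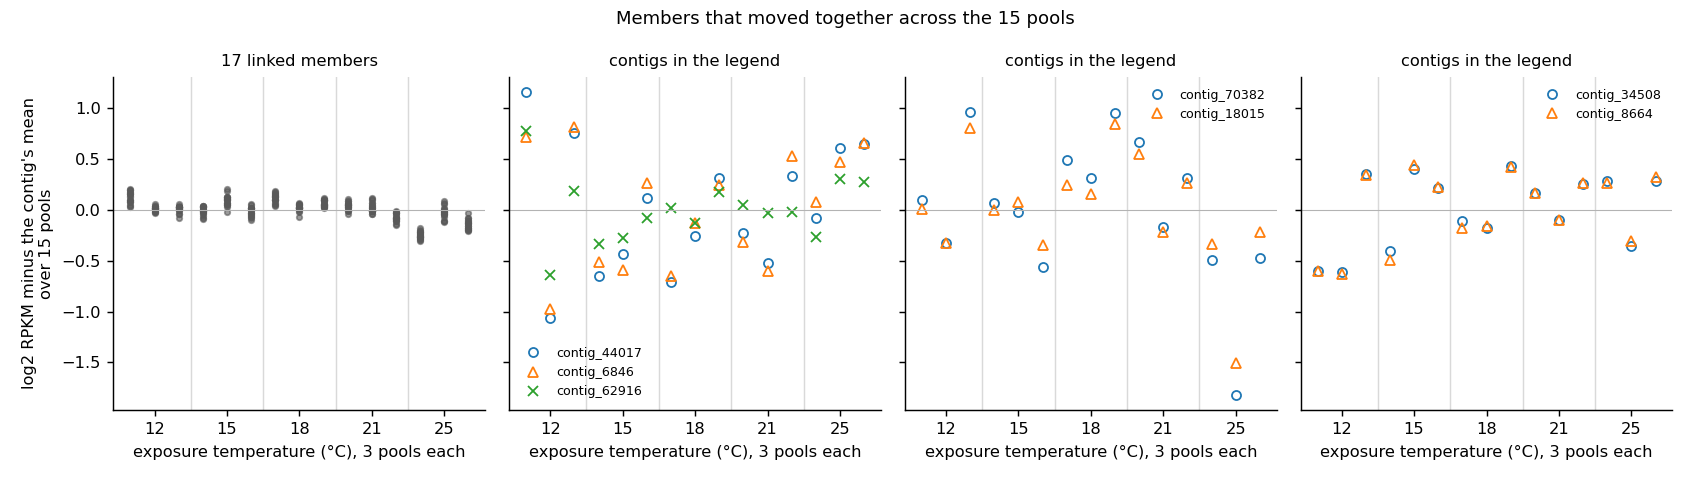
Log2 RPKM of each contig minus its own mean over the 15 pools (vertical axis) in the 3 pools of each temperature, for 17 linked members, for contig_44017, contig_6846 and contig_62916, for contig_70382 and contig_18015, and for contig_34508 and contig_8664. Each point is 1 contig in 1 pool, and grey lines divide the temperatures. The 17 members stay close to each other in every pool, and the pairs contig_70382 with contig_18015 and contig_34508 with contig_8664 move together between pools of 1 temperature. The ratio of contig_44017 to contig_62916 varied more, with a range of 0.630 to 1.56, so this pair is not read as moving together.

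As description, the membership of the top 100 was nearly the same up to 21° and changed at 25°. The 12° values set the list and its ranks, so some loss at every other temperature follows from the selection. Lists chosen from pairs of the 12° libraries themselves shared 94 to 97 contigs with it. Each pair is a part of the libraries that set the list, so this overlap does not measure turnover between separate pools. Of the 100 members, 96 were among the 100 most abundant contigs of at least 300 bp at 15°, 95 at 18°, 92 at 21° and 61 at 25°. The part that stayed at 25° depended on how the list was cut. It was 44% for a top 50, 69.5% for a top 200 and 68% with a minimum length of 1000 bp. Of the first 10 members, 10, 9, 9 and 4 were among the first 10 at these temperatures. The members that left did not go far. Of the 39 that left at 25°, 26 lay within 20% below the RPKM of rank 100, which was 648, and the lowest rank of any member was 235. Most came from the lower end of the list, 34 from ranks 51 to 100 and 5 from ranks 1 to 50.

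The 39 contigs that took their places at 25° were selected on the 25° values and are described with no test. Of these, 5 had been within the first 200 ranks at 12°, another 8 within the first 1000, and 26 had ranked below 1000, the lowest at 56897. Together they took 6.44% of all reads at 25°, 1.01% at 21°, 0.460% at 18° and 0.313% at 15°. The 100 most abundant contigs at 25° held 14.9% of all reads at 25° and 7.87% at 15°. Nothing is read from its lower share at 15°, since that list was selected on the 25° values. As description, each list at its own temperature held 14.9% of all reads at 25° and 9.89% at 12°.

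The 5 most abundant of the entering contigs had means below 200 RPKM at 12° and 15°. Contig_12135 averaged 11.5 RPKM at 12° and 6.35 at 15°. Its means at 18°, 21° and 25° were 9.86, 84.9 and 19557, with 22036, 23212 and 13422 RPKM in the pools at 25°. Contig_21086 averaged 19.1, 18.1, 98.3, 1008 and 19497 at the 5 temperatures, with 21638, 20737 and 16116 RPKM in the pools at 25°. Among contigs of at least 300 bp, contig_12135, contig_21086 and contig_70413 had the 3 highest means at 25°, and their pools overlapped. Contig_62582 averaged 174 RPKM at 15° and 3628 at 25°. Contig_58793 and contig_71098 averaged 3325 and 2913 RPKM at 25° and kept a ratio of 0.829 to 1.19 over the 15 libraries.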

How the data were processed

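Gill RNA of pooled juveniles was sequenced in 15 libraries. The authors trimmed the reads with Cutadapt, and used CLC Genome Workbench to assemble contigs and to align each library. The deposited total and unique read counts per contig are whole numbers, not normalized. The deposited RPKM values were recomputed from the counts, contig length and library total to within a relative gap of 0.0001 above 5 RPKM. The contig length in the deposited table differed between its 2 length columns in 145 contigs and in 0 members. Of the other columns, 50 were not used, among them the authors' own comparisons (fold change, difference of proportions, test statistic and p-value). Sequences and gene names of contigs were not analysed here.

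The tests took in 155951 contigs, those with 10 or more reads in 3 or more libraries, and all 100 members were among them. Each fit held the 6 libraries compared and used edgeR 4.0.16 in R 4.3.3 with TMM scaling, glmQLFit and glmQLFTest, Benjamini-Hochberg adjustment over all contigs, an adjusted p below 0.01 and a fold change above 2. DESeq2 1.42.0 was an alternative. Other calculations used Python 3.11.15 with pandas 2.3.3 and numpy 2.4.6. The scripts were tested on simulated data. Standard errors are of log2 fold changes.

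Contigs were named by a rule: the 10 most abundant members and the 5 with most reads at 12°, up to 6 members with the largest rise and fall past the threshold at 25°, those past it at 18° or 21°, the 3 steadiest and 3 most variable, the 3 steadiest pairs, ranks 98 to 103, and the 5 highest entering contigs. Others were named after their values were seen. The members, lists and rules were chosen with earlier results of these data known.

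The study ran its replicates on consecutive days, but which number stands for which day is not given in the sources used here. Deviations of same-numbered libraries correlated at 0.57, 0.52 and -0.16 between 25° and 15°, and at -0.22, 0.60 and 0.52 between 21° and 15°. Between 18° and 15° they correlated at -0.32, -0.60 and -0.05. The sign differed between comparisons and between numbers, so the numbers were not treated as pairs in the main fits.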

Additional observations from a re-analysis of the deposited data

How the results depend on the processing

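Calls of members were recomputed with library totals, with size factors from DESeq2, with the DESeq2 test, no filter, unique reads, an adjusted p below 0.05, no fold threshold, a fit of all 15 libraries, a replicate block, and each library left out in turn. At 15° and 18° the counts were 0 throughout. Upregulated members at 25° against 15° (5) were 9 with no fold threshold, 3 with library totals, 3 in the fit of all 15 libraries, and 3 to 5 with a library left out. Downregulated members at 25° (0) were 5 with no fold threshold, 4 with library totals (12.7% of all contigs, against 5.6% upregulated in that fit), and 0 to 1 with a library left out. At 21° the 1 upregulated member became 2 with no fold threshold. Against 12°, where the libraries chose the members and nothing is read from the counts, the 1 at 21° became 2 with no fold threshold and 0 to 1 with a library left out, and the 4 at 25° became 8 with no fold threshold, 7 with library totals and 3 to 6 with a library left out. The 1 fall among these 4, of contig_24715, was lost without 25° replicate 1 or 3 and without 12° replicate 1 or 2.

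With the replicate number as a block, 5 members were upregulated at 25° against 15°, 1 at 21° and 0 at 18°, and no other call of members changed. Over all contigs the replicate block moved upregulated calls at 18° against 15° from 53 to 11.

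The difference in read share at 25° against 15° (0.0515 percentage points) reversed to -0.61 as a share of summed RPKM, -0.50 for the top 200, -1.26 with a minimum length of 1000 bp and -1.49 without contig_70413, an alternative chosen after seeing the data. It was -0.12 to 0.33 with a library left out. The difference at 21° (-0.127) was between -0.324 and 0.155 with a library left out. The cause was not tested.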
